A study of Mus musculus with 11 samples.

Results

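The genes of complexes I to IV of the respiratory chain were examined in mouse embryonic stem cells (ESCs) and in embryoid bodies (EBs), the free-floating aggregates in which ESCs differentiate. Members were chosen by name: protein-coding genes whose symbols mark them as subunits of complex I (Nduf), complex II (Sdh), complex III (Uqcr and mt-Cytb) or complex IV (Cox4 to Cox8 and mt-Co). The rule found 77 genes among the 39179 gene rows of the table, of which 66 lie in the nuclear genome and 11 in the mitochondrial genome. The nuclear members were 36 of complex I, 4 of complex II, 8 of complex III and 18 of complex IV. The mitochondrial members were 7 of complex I, 1 of complex III and 3 of complex IV. A nuclear member was tested where its mean over the 10 libraries was 10 or more, which 62 of the 66 passed. Cox6a2, Cox7b2, Cox8b and Cox8c did not.

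Poly(A) RNA was sequenced from cell lines of the C57BL/6 strain that were either wild type (WT) or knocked out for Mettl3 (KO), the methyltransferase that places N6-methyladenosine on messenger RNA. WT ESCs and KO ESCs had 3 libraries each, with the letters A, B and C, and WT EBs and KO EBs had 2 each, with the letters A and B. ESCs grew without serum in LIF with a GSK3 inhibitor (1 to 3 μM) and a MEK inhibitor (1 μM), and EBs grew unattached in serum for 8 to 21 days, with the day of each library not stated. The labels call the libraries biological replicates, state no number of cell lines or clones, and tie both ESC libraries with the letter C to a SILAC protein assay.

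Complexes I and II pass electrons from NADH and succinate to ubiquinone, complex III passes them on to cytochrome c, and complex IV hands them to oxygen. Complexes I, III and IV pump protons, and the resulting gradient drives ATP synthase. Complex II is wholly encoded in the nucleus, whereas the other complexes join nuclear subunits with a core made in the mitochondrion. Pluripotent cells are known for a high rate of glycolysis, and differentiation usually brings a greater use of respiration.

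Values are read counts divided by a size factor for each library, here called normalized counts. Reads in genes came to 3026837 and 3075007 in the C libraries of WT and KO ESCs, and to between 8523027 and 15426894 in the other 8. Mettl3 itself, the check of the labels, stood at 422, 392 and 425 normalized counts in WT ESCs and at 138, 133 and 131 in KO ESCs, and at 399 and 368 in WT EBs against 154 and 147 in KO EBs. The summed level of 7 pluripotency markers lay between 31562 and 65765 in ESCs of both genotypes, 16146 and 18021 in WT EBs, and 25429 and 29063 in KO EBs. The summed level of 10 endoderm markers was 72823 and 73837 in WT EBs and 1459 and 1502 in KO EBs, where 1 of the 10 was at 0. The summed level of 8 fibroblast markers was 15771 to 21036 in ESC libraries A and B, 4674 in WT ESC library C and 2119 in KO ESC library C. Among them the collagen gene Col3a1 had 3115 and 3171 in WT ESC libraries A and B and 23 in C, and 6222 and 6532 in KO ESC libraries A and B and 19 in C. Thy1 was instead highest in C, with 57.2, 55.7 and 92.2 in WT ESCs and 29.4, 30.9 and 97.2 in KO ESCs. In libraries A and B Postn was lower in KO (141 and 191) than in WT (234 and 300), unlike Col3a1. In bulk libraries, fewer cells of a type and less RNA per cell cannot be told apart.

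The 11 mitochondrial members were listed at 0 in every library. They were mt-Nd1, mt-Nd2, mt-Nd3, mt-Nd4, mt-Nd4l, mt-Nd5 and mt-Nd6 of complex I, mt-Cytb of complex III, and mt-Co1, mt-Co2 and mt-Co3 of complex IV, which holds the catalytic core of the oxidase. All 37 rows of the mitochondrial chromosome, with 13 protein-coding genes, 2 ribosomal RNAs and 22 transfer RNAs, summed to 0 reads over the 10 libraries. Nothing about mitochondrial transcript levels can therefore be read from these values, and no comparison was made. Nuclear copies of these genes did carry some reads. Gm10222 on chromosome 1, which shares sequence with mt-Nd4l, had 21.5 and 27.5 normalized counts in WT ESC libraries A and B and 0.544 and 2.72 in the same KO libraries. In EBs it had 29.9 and 24.1 in WT and 1.41 and 0.849 in KO, and both C libraries were at 0. Gm13340 on chromosome 2, which shares sequence with mt-Co1, ranged from 3.81 to 26.4 over all libraries. The share of 50-base windows that also occurred in annotated nuclear genes differed between the mitochondrial transcripts. It was 0% in mt-Nd1, mt-Nd6 and mt-Cytb, 7.61% in mt-Nd5 and 8.19% in mt-Nd2. In mt-Co1 it was 51.1% and in mt-Nd4 62.2%. The highest shares were 98.0% in mt-Nd3, 98.8% in mt-Nd4l, 99.9% in mt-Co3 and 100% in mt-Co2.

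The ESC libraries with the letter C stood apart from A and B for the nuclear members. On the log2 scale of normalized count + 1, the median member was 0.85 higher in C than in the mean of A and B in WT and 0.77 higher in KO, whereas the median of all 15781 genes tested was -0.20 in both. Of the 62 members, 54 were higher in C in WT and 56 in KO. These differences, of 1 library against 2 in each genotype, are given as a description and were not tested. Library C also had fewer reads that aligned to several places, 30.6% of records in WT and 28.7% in KO, against 36.9% to 46.1% in the other 8 libraries.

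Many members have pseudogene copies elsewhere in the genome, and the median shift in C was largest for the members that share most sequence with other genes. Windows were taken from the transcript with the longest coding sequence, which is not always the longest transcript. For 7 members, 25% or more of its 50-base windows also occurred in another annotated gene: Ndufa12 (53.8%), Cox7c (53.0%), Uqcrb (43.2%), Ndufb4 (37.0%), Ndufs3 (35.8%), Ndufs5 (31.1%) and Cox5b (25.9%). Their median shift in C was 3.31 in WT and 3.06 in KO, and the 38 members with no shared window had medians of 0.56 and 0.67. Some members outside the 7 moved as far as Ndufs3 (2.04 in WT and 1.74 in KO). Cox7b, with 0.63% shared, moved by 2.13 and 2.06, and Ndufa1, with no shared window, by 2.00 and 2.09. Uqcrb, a small subunit of complex III that contacts the ubiquinone site, shows how close such copies are. A 60-base stretch of its coding sequence (bases 241 to 300 of the coding sequence) and the matching stretch of 4 pseudogenes, from GENCODE transcripts of GRCm38, are printed here to show what a read from either would look like. Capitals mark the base that differs from Uqcrb.
Uqcrb, gene at chr13:66900617-66905378: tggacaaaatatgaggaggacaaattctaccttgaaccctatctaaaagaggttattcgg
Gm2962, gene at chr1:170925309-170925644: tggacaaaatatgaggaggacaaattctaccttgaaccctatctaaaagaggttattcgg
Gm16089, gene at chr5:137615627-137615962: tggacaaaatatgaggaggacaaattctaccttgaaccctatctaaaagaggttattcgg
Gm5457, gene at chr14:12867553-12867885: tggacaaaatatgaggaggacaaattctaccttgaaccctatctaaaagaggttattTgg
Gm19326, gene at chr10:75767161-75767486: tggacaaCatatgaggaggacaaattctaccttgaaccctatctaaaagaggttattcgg
The first 2 copies are identical to Uqcrb here and the other 2 differ at 1 base.

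For several of the 7 members a copy carried reads in libraries A and B and none in C. Uqcrb had 195, 150 and 1703 normalized counts in WT ESC libraries A, B and C, and its copy Gm2962 had 273, 161 and 0. In KO ESCs Uqcrb had 188, 165 and 1386, and Gm2962 had 252, 175 and 0. Both C libraries were thus high for the gene and at 0 for the copy. Cox7c, a small subunit of complex IV, had 283, 234 and 2421 in WT ESCs, with 1357, 1223 and 0 in its copy Gm12338. Ndufa12, an accessory subunit of complex I, had 88.0, 82.4 and 758, with 461, 348 and 0 in its copy Gm15920. Ndufs3, a core subunit of complex I, had 238, 170 and 833, with 191, 222 and 0 in Gm12251. The copy BC002163 of Ndufs5 was an exception, with 250, 240 and 152. So was Cox5b, which had the largest shift of all members in WT (4.04, and 3.36 in KO): its copy Gm11273 was at 0 in all 10 libraries, and adding copies left its shift as it was. When the reads of the copies were added to each member, an alternative chosen after seeing the data, the median shift of the 7 members was 1.34 in WT and 1.25 in KO, and that of all 62 was 0.78 and 0.74. Cox7c and Ndufa12 then had shifts of 0.65 and 0.64 in WT. Ndufb4 kept 3.14 in WT and 3.02 in KO, against 4.01 and 3.62 without copies. Its copy Ndufb4c had 26.5, 38.9 and 0 in WT ESC libraries A, B and C, and Ndufb4 had 35.1, 41.2 and 629. Levels of these 7 members are therefore uncertain in every library, and whether reads were shared out between gene and copy differently in C was not tested.

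**Figure D1:**
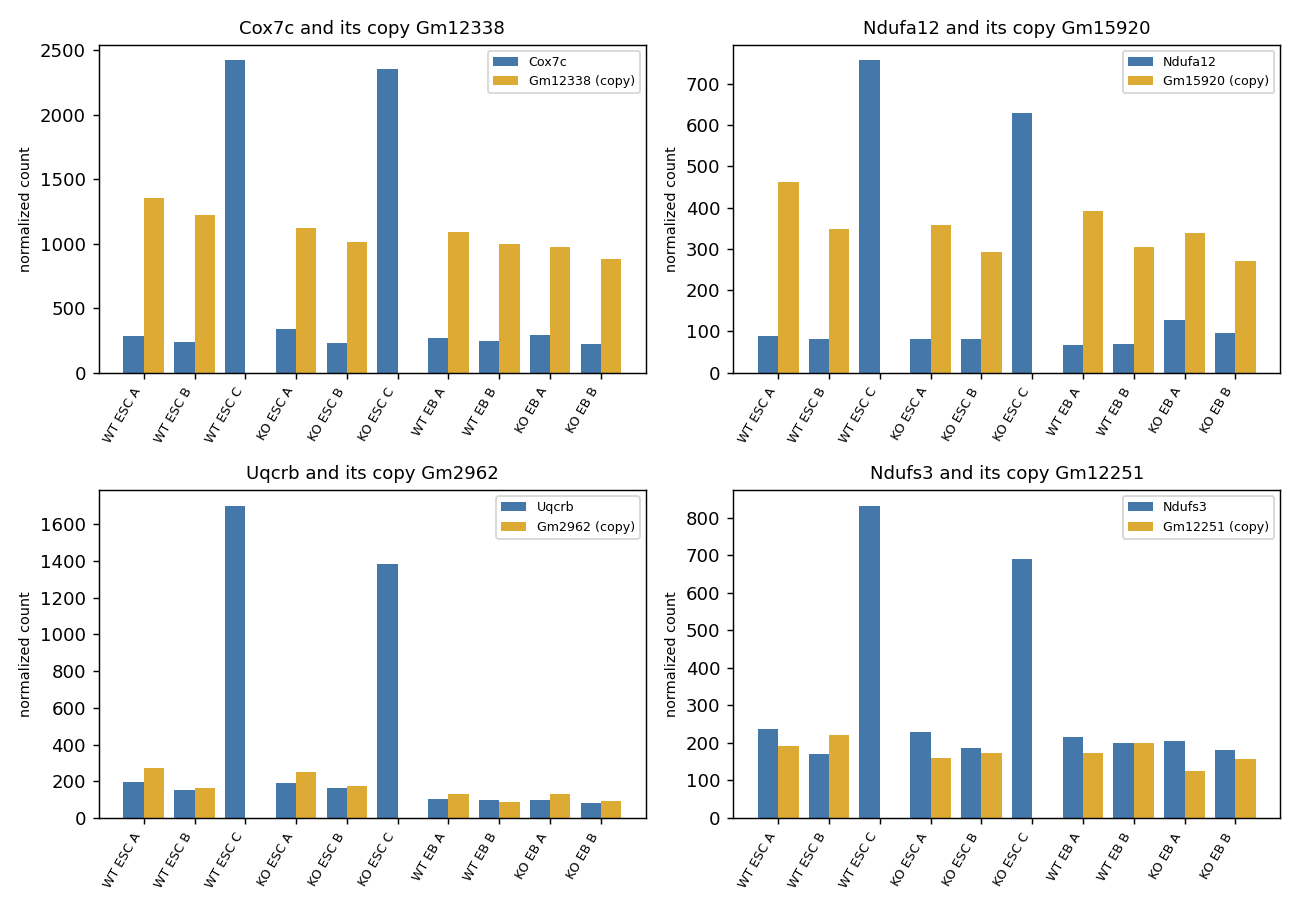
Normalized counts (y axis) of 4 members and of 1 pseudogene copy of each in the 10 libraries (x axis), with blue bars for the member and yellow bars for the copy. In both C libraries the member is at its highest and the copy is at 0.

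**Figure D2:**
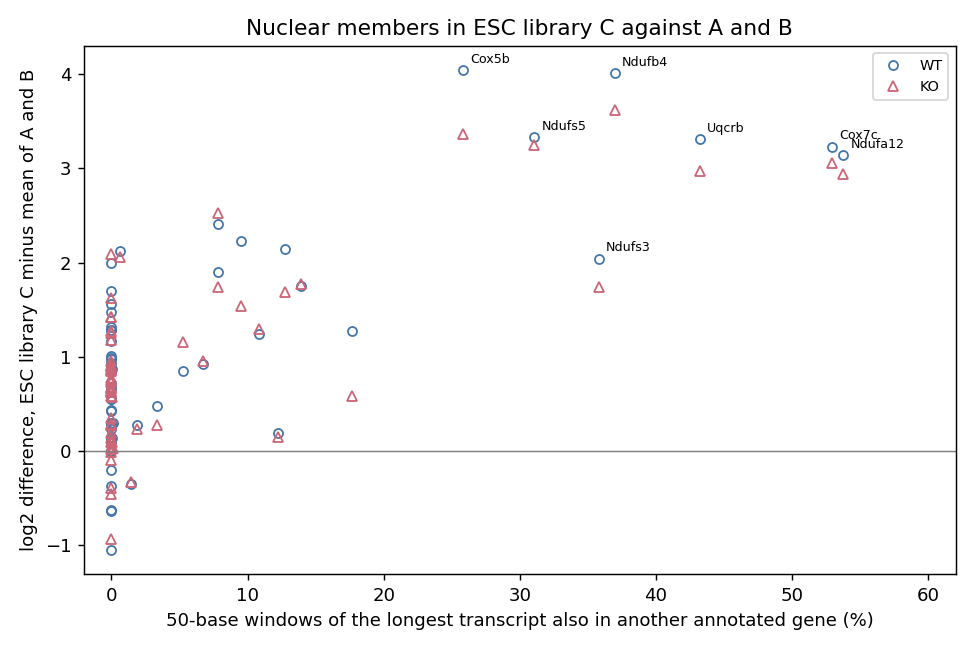
Each point is 1 of the 62 nuclear members tested, with the share of its 50-base windows that also occur in another annotated gene (x axis, %) against the log2 difference between ESC library C and the mean of A and B (y axis), for WT (circles) and KO (triangles). The longest transcript of the axis label is the transcript with the longest coding sequence. The 7 named members at 25% or more lie between 1.74 and 4.04.

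The summed level of the 66 nuclear members was highest in WT ESCs and lowest in KO EBs. As a share of reads in genes it was 0.687%, 0.654% and 0.966% in WT ESC libraries A, B and C, and 0.568%, 0.532% and 0.879% in the same KO libraries. In EBs it was 0.573% and 0.551% in WT and 0.499% and 0.473% in KO. At each letter the KO library had the lower share. All EB libraries lay below every WT ESC library. By complex there were 2 exceptions to the lower share in KO. Complex III had 0.156% in WT and 0.157% in KO ESC library C, and complex IV had 0.179% and 0.164% in WT EBs and 0.185% and 0.165% in KO EBs. By normalized counts neither was an exception, since the sum for complex III in library C was 15554 in WT and 13376 in KO, and that for complex IV in EBs was 14642 and 12918 in WT and 13875 and 11938 in KO. Complex II, the succinate dehydrogenase that also serves the tricarboxylic acid cycle, had 0.0577%, 0.0618% and 0.0702% in WT ESCs, 0.0440%, 0.0469% and 0.0559% in KO ESCs, 0.0511% and 0.0549% in WT EBs, and 0.0374% and 0.0407% in KO EBs.

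Levels between members differed widely when taken per kilobase of exon. The mean normalized count per kilobase over the 10 libraries had a median of 396 in complex I, 396 in complex II, 572 in complex III and 480 in complex IV. The highest were Ndufb6 (1028) in complex I, Sdhd (863), a membrane anchor of complex II, Uqcr10 (3322) in complex III and Cox8a (4169) in complex IV. The lowest were Ndufb2 (13.0), Sdhc (228), Uqcrq (264) and Cox8c (1.43). Per kilobase of the longest transcript, Ndufa7 (2082) and Cox4i1 (5466) took the highest place in complexes I and IV. The members are short genes: the longest transcript had a median of 992 bases and 4 exons, against 3387 bases and 8 exons over the protein-coding genes tested.

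The first comparison, KO against WT ESCs, asks what loss of Mettl3 changed in the pluripotent state. Sdhb, Sdha and Ndufv1 fell in KO ESCs, no member rose, and most other members lay below WT without passing the test. The fitted log2 difference was below 0 for 56 of the 62 members, with a median of -0.42 against -0.02 over all genes tested. By complex the median was -0.42 in complex I, -0.56 in complex II, -0.44 in complex III and -0.21 in complex IV.

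Sdhb (ENSMUSG00000009863, chr4:140961203-140979193 of GRCm38), the iron-sulfur subunit of complex II, had 1113, 1098 and 1364 normalized counts in WT ESCs and 589, 581 and 714 in KO ESCs. The means were 1191 ± 149 and 628 ± 74.3 (SD, n = 3 each), the groups did not overlap, and the KO library was lower at each letter. The log2 difference was -0.92 (SE 0.15, adjusted p = 0.0335, limma). Sdha (ENSMUSG00000021577, chr13:74322254-74350280), the subunit that binds FAD and oxidizes succinate, had 2313, 2368 and 2582 in WT and 1481, 1510 and 1597 in KO, with means of 2421 ± 143 and 1529 ± 60.3 (SD, n = 3 each). Again no KO library reached a WT library. Its log2 difference was -0.66 (SE 0.12, adjusted p = 0.0396). Ndufv1 (ENSMUSG00000037916, chr19:4007384-4012806), the subunit of complex I that binds NADH, had 2111, 1957 and 2032 in WT and 1194, 1152 and 1164 in KO, with means of 2033 ± 76.9 and 1170 ± 21.4 (SD, n = 3 each). Its log2 difference was -0.80 (SE 0.12, adjusted p = 0.0294). None of the 3 shared a window with another gene, and in WT their shift in library C was 0.30, 0.14 and -0.00. Over the 21 alternatives the adjusted p ran from 7.39e-07 to 0.315 for Sdhb, from 1.48e-10 to 0.325 for Sdha and from 1.13e-14 to 0.315 for Ndufv1.

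Of the 62 members, 3 were called lower and 0 higher in limma, against 1.07% and 1.31% of all genes tested. At an unadjusted p under 0.05 there were 11 (17.7%), all lower, against 17.2% of all genes in either direction and 8.36% lower. The edgeR test on recovered reads called 2 (Sdhb and Ndufv1), both lower, against 2.39% of all genes in either direction and 0.830% lower. DESeq2 called 9 (14.5%), all lower, against 12.4% in either direction and 5.83% lower. Over both directions the members' shares by unadjusted p and by DESeq2 were thus near those of all genes. With the replicate letter as a block, 33 members were called lower and 0 higher, against 15.3% and 14.0% of all genes. Without both C libraries, 35 were called lower and 1 higher, against 27.8% and 27.4%. The KO library was lower at every letter for 48 members (77.4%), against 27.8% of all genes, and the groups did not overlap, with KO lower, for 11 members (17.7%), against 8.78% of all genes. The count of calls was 0 when any 1 ESC library with the letter A or B was left out, 5 without WT ESC library C and 10 without KO ESC library C. The share of all genes called in these fits is not given here.

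The core subunits of complex I hold its redox centres. Ndufs8, which carries iron-sulfur clusters, had 634, 596 and 656 in WT ESCs and 302, 318 and 478 in KO ESCs, with no overlap and a log2 difference of -0.81 (SE 0.20, adjusted p = 0.0870, and 0.0137 with the block). Ndufv2 had 1019, 1013 and 1495 in WT and 677, 696 and 1161 in KO, a difference of -0.50 (adjusted p = 0.385, and 0.00979 with the block). For Ndufs1 and Ndufs7 the differences were smaller, at -0.20 and -0.29. Ndufs3, one of the 7 members with uncertain levels, was higher in KO at letter B (185 against 170), with a difference of -0.07 (SE 0.67, adjusted p = 0.665 with the block) and of 0.03 without the C libraries. Among accessory subunits, Ndufb10 and Ndufa7 had differences of -0.75 and -0.73, with adjusted p = 0.0581 and 0.0643, and 0.0106 and 0.0038 with the block. Ndufa6 had the highest difference in complex I, 0.14, with 974, 779 and 567 in WT and 1080, 764 and 694 in KO, so its groups overlapped.

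Complex III held the member with the highest difference in ESCs. Uqcrfs1 (chr13:30540308-30545362), the Rieske iron-sulfur protein, had 647, 657 and 1588 normalized counts in WT ESCs and 1090, 1098 and 1691 in KO ESCs. KO was higher at each letter, and the ranges overlapped through WT library C. The log2 difference was 0.53 (SE 0.36, adjusted p = 0.560, and 0.0535 with the block). Without the C libraries it was 0.75 (SE 0.07, adjusted p = 3.90e-05). Uqcrc1, a core protein of complex III, went the other way, with 3343, 3105 and 3498 in WT and 2221, 2071 and 2738 in KO and a difference of -0.51 (adjusted p = 0.133, and 0.00914 with the block). Uqcrc2, its partner, had 1319, 1485 and 2787 against 1036, 1092 and 1933, a difference of -0.44. In complex II the membrane anchors Sdhc and Sdhd had differences of -0.46 and 0.03, with adjusted p = 0.149 and 0.999. Cox5b of complex IV had the second highest difference in ESCs, 0.39 (SE 1.29), with 68.7, 65.6 and 1123 in WT and 119, 89.9 and 1075 in KO, and it is among the 7 members with copies.

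**Figure D3:**
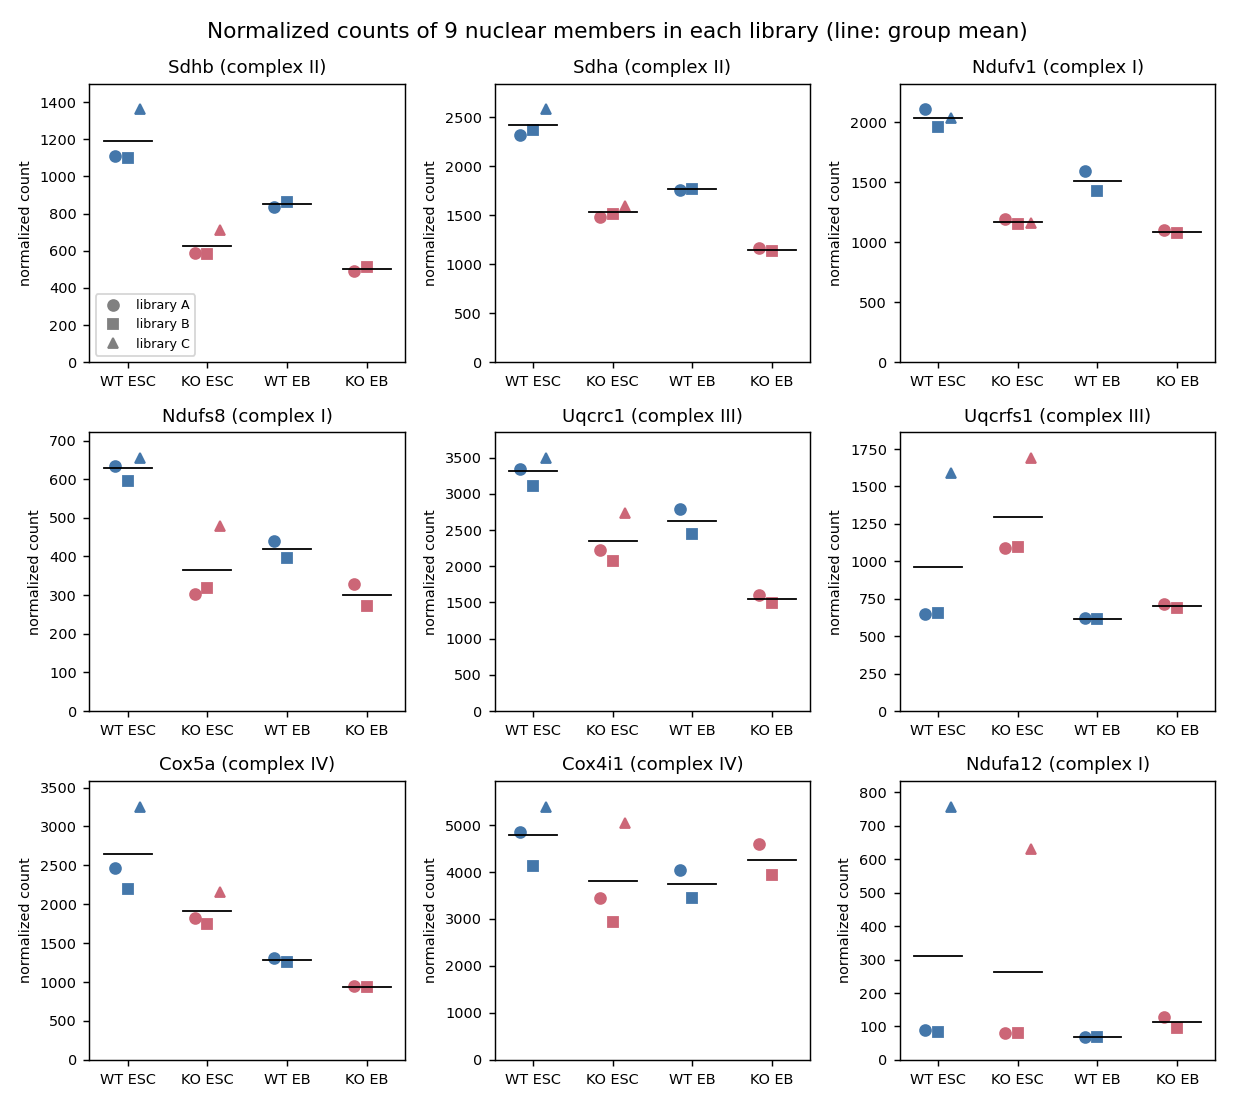
Normalized counts (y axis, from 0) of 9 members in every library, by group (x axis), with circles for A, squares for B, triangles for C and a line at the group mean. Sdhb, Sdha and Ndufv1 separate KO from WT in both stages, and C lies far above A and B for Ndufa12 and Uqcrfs1 in WT ESCs.

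**Figure D4:**
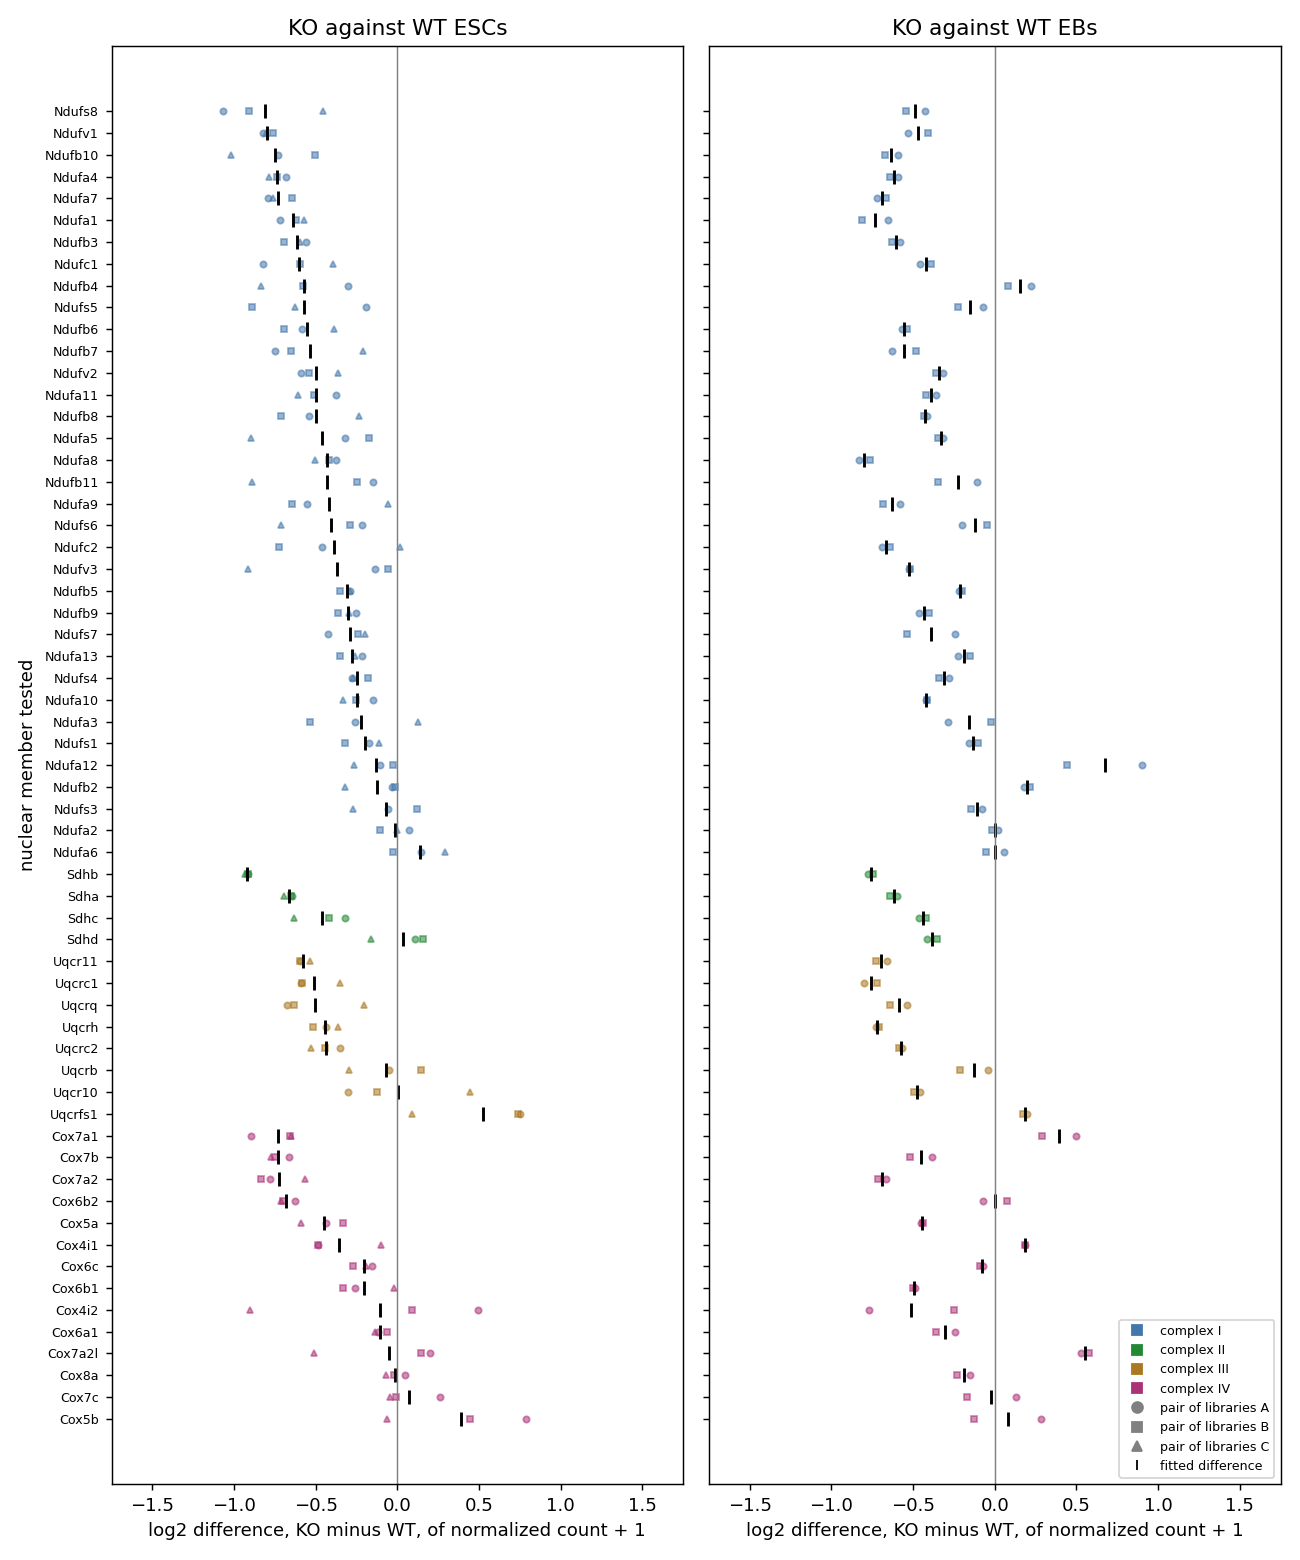
Log2 difference of normalized count + 1 (x axis) between KO and WT libraries of the same letter (points) and as fitted (black bars) for 61 nuclear members (y axis), in ESCs and in EBs, colored by complex. In ESCs 55 of these fitted differences and in EBs 52 lie below 0.

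The second comparison, KO against WT EBs, asks the same after differentiation. No member passed the main test, although 53 of 62 had a fitted difference below 0, with a median of -0.40 against -0.02 over all genes. The medians were -0.39 in complex I, -0.53 in complex II, -0.58 in complex III and -0.13 in complex IV. The EB groups of 2 libraries borrow their spread from all 4 groups, the spread of ESC library C included.

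The members with the lowest differences were Ndufa8, Uqcrc1 and Sdhb. Ndufa8, a complex I subunit imported into the space between the membranes, had 391 and 345 normalized counts in WT EBs and 219 and 203 in KO EBs, a difference of -0.80 (SE 0.55, adjusted p = 0.659, and 0.00782 with the block). Uqcrc1 had 2790 and 2450 against 1600 and 1489, a difference of -0.76 (SE 0.19, adjusted p = 0.0962, and 0.00744 with the block). Sdhb had 838 and 861 against 490 and 514, a difference of -0.76 (SE 0.18, adjusted p = 0.0934, and 0.00504 with the block). For each of the 3, both KO EB libraries lay below both WT EB libraries.

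The main test called 0 members lower and 0 higher, against 1.37% and 0.469% of all genes. At an unadjusted p under 0.05 there were 7 (11.3%), all lower, against 13.9% of all genes in either direction and 8.29% lower. The edgeR test called 0, against 1.83% of all genes. DESeq2 called 6 (9.68%), all lower, against 9.83% of all genes in either direction and 6.09% lower. Over both directions none of these 3 shares of the members exceeded that of all genes. With the block 25 were called lower and 1 higher, against 13.4% and 9.27% of all genes. Without the ESC C libraries 36 were lower and 4 higher, against 27.9% and 24.1%. Without WT ESC library C alone the count was 3, without KO ESC library C alone it was 4, and a fit of the EB libraries alone called 36. For these fits the share of all genes called is not given here, so the counts are no result about the members. KO was lower at both letters for 50 members (80.6%), against 45.6% of all genes. The groups did not overlap with KO lower for 40 members (64.5%), against 38.9% of all genes, and with KO higher for 4 members (6.45%), against 36.0%. The summed endoderm markers, far lower in KO EBs, moved with these differences, and their part in them was not tested.

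The 4 members called higher in EBs without the C libraries were Ndufa12, Cox7a2l, Cox7a1 and Uqcrfs1. Ndufa12 had 68.2 and 69.7 in WT EBs and 129 and 95.1 in KO EBs, a difference of 0.67 (SE 1.29, adjusted p = 1.00 in the main test, 0.0492 with the block). With the reads of its copy Gm15920 added the difference was -0.00. Cox7a2l, which helps complexes III and IV to join in supercomplexes, had 668 and 733 in WT and 963 and 1092 in KO, a difference of 0.55 (adjusted p = 0.747, and 0.00151 without the C libraries). Its copy Gm6969 was also higher in KO, with 66.7 and 43.0 in WT EBs and 298 and 252 in KO EBs, and with 76.5 and 48.9 in WT ESC libraries A and B and 244 and 214 in the same KO libraries. Uqcrfs1 had 620 and 612 against 712 and 689, a difference of 0.19 (adjusted p = 1.00, and 0.0474 without the C libraries), and Cox7a1 is described with the isoforms.

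EBs were compared with ESCs of the same genotype to follow the members through differentiation. In WT, Cox5a, a subunit on the matrix side of complex IV, fell, and all members other than Cox4i2 had a fitted difference below 0. Cox5a (chr9:57521274-57532426) had 2469, 2201 and 3254 normalized counts in WT ESCs and 1303 and 1264 in WT EBs, with means of 2641 ± 548 (SD, n = 3) and 1283 ± 28.0 (SD, n = 2). No EB library reached an ESC library, and the log2 difference was -1.02 (SE 0.20, adjusted p = 0.0442). Leaving out any 1 library with the letter A or B ended this call, with adjusted p from 0.0723 to 0.370, and edgeR gave 0.0773. An antisense gene, Gm26631, overlaps 269 bases of the exons of Cox5a, and without strand their reads cannot be told apart.

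The median member in WT EBs was -0.59 against WT ESCs, while the median of all genes was 0.09. Without the C libraries, in which the members are high, it was -0.32 and that of all genes -0.04. The main test called 1 member lower and 0 higher, against 0.475% and 2.01% of all genes, with 18 (29.0%) at an unadjusted p under 0.05, of which 17 were lower, against 14.5% of all genes in either direction. The edgeR test called 0 and DESeq2 5 (8.06%), against 2.93% and 9.66% of all genes. With the block 48 were lower and 1 higher, against 16.7% and 21.3%, and without the C libraries 28 were lower and 1 higher, against 23.7% and 22.5%. The letters do not pair EBs with ESCs, so the block here leaves the spread between letters, that of C included, out of the error. Its calls in comparisons of EBs with ESCs therefore do not allow for that spread. The count was 6 without KO ESC library C and 1 without WT ESC library C, in fits for which no share of all genes is given here. EBs lay below ESCs with no overlap for 41 members (66.1%), against 19.4% of all genes. The lowest fitted differences belonged to Ndufb4 (-1.99), Uqcrb (-1.88) and Ndufs5 (-1.48), all members with copies. Without the C libraries they were -0.65, -0.78 and -0.37. The smallest among members with a mean of 100 or more were Cox8a (-0.12), Ndufc2 (-0.14) and Ndufa6 (-0.16).

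In KO the median member was -0.63 against 0.06 over all genes, and -0.35 against -0.05 without the C libraries. No member passed the main test in either direction, against 0.355% of all genes lower and 0.450% higher, with 14 (22.6%) at an unadjusted p under 0.05, all lower, against 13.5% of all genes in either direction. The edgeR test called 0 and DESeq2 7 (11.3%), against 1.23% and 8.99% of all genes. With the block, under the same limit as in WT, 48 were lower and 0 higher, against 18.4% and 19.5%. Without the C libraries 30 were lower and 3 higher, against 26.0% and 21.3%. Without either C library alone the count was 2, with no share of all genes given here. EBs lay below ESCs with no overlap for 36 members (58.1%), against 20.5% of all genes. Cox6b1, which bridges the monomers of complex IV, had 1391, 1221 and 2527 in KO ESCs and 701 and 610 in KO EBs, a difference of -1.31 (SE 0.35, adjusted p = 0.139, and 0.0137 by DESeq2). Uqcr10 had 2515, 2121 and 2341 against 1215 and 1004, a difference of -1.07 (adjusted p = 0.102). The lowest fitted differences were those of Uqcrb (-1.94) and Cox5b (-1.66), and without the C libraries they were -0.95 and -0.54. Each of these comparisons shares its libraries with the comparisons of genotypes.

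**Figure D5:**
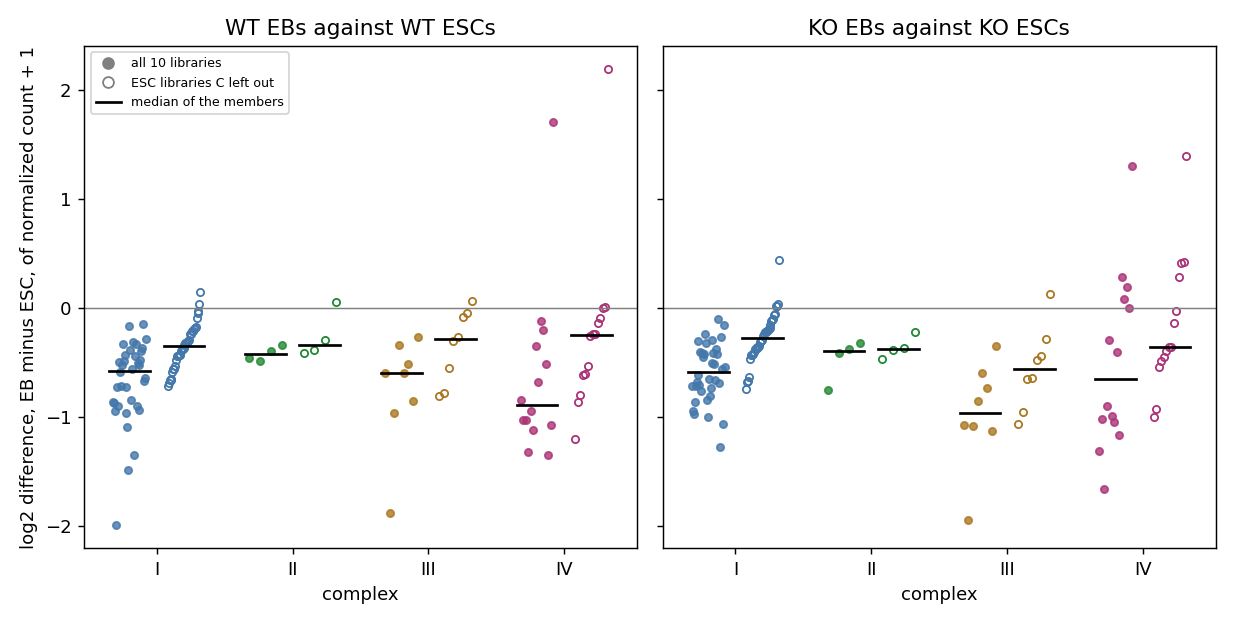
Fitted log2 difference between EBs and ESCs (y axis) of each nuclear member tested, by complex (x axis), for WT and KO, with all 10 libraries (filled) and without the ESC C libraries (open), and black lines at the medians. In WT the medians of all 4 complexes are closer to 0 without the C libraries, and the same holds in KO.

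Whether the knockout acted differently in the 2 stages was tested as the difference of the KO effects, EBs less ESCs. No member passed, against 0.412% of all genes lower and 0.0634% higher, and 0 had an unadjusted p under 0.05 in limma. The edgeR and DESeq2 tests also called 0. The median was 0.01. With the block, Cox6b2 (0.68) and Cox7a1 (1.13) were called higher, against 2.81% of all genes higher and 4.99% lower. Without the C libraries 4 members were called higher (Ndufa12, Ndufs8, Cox4i1 and Cox7a1) and 2 lower (Sdhd and Uqcrfs1), against 16.3% and 19.9% of all genes.

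Complex IV has pairs of isoforms that differ between tissues, and the ubiquitous isoform was the more abundant one in each pair. Taken per kilobase of exon, Cox4i2, an isoform of lung and of low oxygen, made up 0.145% to 0.597% of the sum of Cox4i1 and Cox4i2 in ESCs, 1.65% and 1.26% in WT EBs, and 0.839% and 0.927% in KO EBs. Cox4i2 had 3.58, 7.63 and 16.5 normalized counts in WT ESCs and 34.5 and 22.4 in WT EBs, the one member above 0 in that comparison (1.70, SE 0.64, adjusted p = 0.263, 0.0280 with the block and 0.00186 without the C libraries). Library C again stood between the groups, a spread that the blocked value leaves out. The WT ESC values of Cox4i2 rest on 5, 10 and 5 reads, and those of WT EBs on 45 and 26. In WT ESC library C, 3 reads are worth 9.88 normalized counts. Cox4i1 had 4844, 4120 and 5392 in WT ESCs and 3457, 2942 and 5038 in KO ESCs, and 4040 and 3451 in WT EBs against 4599 and 3927 in KO EBs. Its KO difference was below 0 at every letter in ESCs (-0.36) and above 0 at both in EBs (0.19).

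Cox7a1, the isoform of heart and skeletal muscle, was well above the other muscle isoforms. It made up 23.2% and 21.2% of the sum with Cox7a2 in WT ESC libraries A and B and 6.36% in C, 21.7%, 23.3% and 5.97% in KO ESCs, 15.5% and 16.1% in WT EBs, and 29.2% and 27.9% in KO EBs. In counts it had 174, 156 and 79.1 in WT ESCs, 93.0 and 99.0 in KO ESC libraries A and B and 50 in C, 68.2 and 74.9 in WT EBs, and 96.8 and 91.7 in KO EBs. KO was lower at every letter in ESCs and higher at both in EBs. The summed level of 14 cardiac and striated muscle markers was 277 in WT ESC library C and 433 in KO ESC library C, the lowest library for Cox7a1 within each ESC group, and 2463 to 3051 in the other ESC libraries, 1080 in WT EBs, and 2008 and 2269 in KO EBs. Most of this sum in ESC libraries A and B and in KO EBs was the titin gene Ttn, with 2296, 2604 and 42.8 in WT ESCs, 238 and 308 in WT EBs, and 1435 and 1694 in KO EBs. Other markers of the list went the other way in EBs, among them the myosin genes Myh7 (302 and 244 in WT, 2.83 and 0 in KO), Myl7 (71.3 and 68.9 against 26.8 and 12.7) and Myl4 (58.2 and 54.2 against 9.89 and 9.34) and the troponin Tnni1 (28.3 and 23.2 against 3.53 and 4.25). Of the defining markers, the troponin Tnnt2 was at 6.79 or below and the actin Actc1 at 0.861 or below in every library, and the part of muscle cells in these values was not tested. Cox7a2, its ubiquitous partner, had 1017, 1024 and 2052 in WT ESCs and 591, 574 and 1389 in KO ESCs, a difference of -0.73 (adjusted p = 0.436, and 0.00540 with the block). The muscle isoforms Cox6a2 and Cox8b had at most 9.34 and 3.81 normalized counts.

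Cox6b2, the testis isoform, made up 11.0% to 17.9% of the sum with Cox6b1 in WT ESCs, 8.68% to 11.9% in KO ESCs, 18.9% and 15.2% in WT EBs, and 23.7% and 21.2% in KO EBs. In counts it was lower in KO than in WT at every letter in ESCs (411, 296 and 873 against 267, 182 and 533) and had 358 and 244 in WT EBs against 340 and 256 in KO EBs. The testis isoforms Cox7b2 and Cox8c had at most 22.2 and 3.29, the first in KO ESC library C, where 3 reads are worth 8.33. Ndufa4, which is now counted with complex IV, had 1062, 1006 and 3353 in WT ESCs and 661, 602 and 1947 in KO ESCs. Its shift in library C was 1.70 in WT, its SE 0.58 and its adjusted p 0.633, and with the block the same difference of -0.74 had an SE of 0.06 and an adjusted p of 0.00372. Cox7b had a difference of -0.73, with adjusted p = 0.752 and, with the block, 0.00393.

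Promoter sequence was available from RefSeq (GRCm38.p6) for 53 of the 66 nuclear members, from 250 bases before to 50 after the start site. It was searched on both strands for CGCATGCG, the site of nuclear respiratory factor 1 (NRF1), for CCGGAAGT, a site of GABP, and for AAGATGGC, the core of a YY1 site. NRF1 letters were found in 5 members (9.43%), against 2.07% of all 27025 genes with a promoter, GABP letters in 4 (7.55%) against 4.31%, and YY1 letters in 7 (13.2%) against 3.19%. These are matches of letters, not sites shown to be bound, and members were not chosen for them. The 5 NRF1 matches are shown with 10 bases on either side, on the strand of the gene, with the match in capitals, since NRF1 is the best known regulator of these genes.
Cox6a1, chr5:115349102-115349129, minus strand: aggaacggggCGCATGCGcgctctcgct
Ndufa11, chr17:56717693-56717720, plus strand: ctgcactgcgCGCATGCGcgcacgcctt
Ndufa8, chr2:36049330-36049357, minus strand: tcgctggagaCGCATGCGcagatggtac
Uqcr11, chr10:80406809-80406836, minus strand: atcgccttcaCGCATGCGctatacgtct
Uqcrc1, chr9:108936669-108936696, plus strand: ctccgctctgCGCATGCGcagcgcggct
The matches began between 161 bases before the start site (Cox6a1) and base 32 after it (Uqcrc1). The KO differences of the 5 ranged from -0.58 to -0.11 in ESCs and from -0.80 to -0.30 in EBs. Over all 62 members tested the medians were -0.42 and -0.40. Ndufa8 and Uqcrc1 were also the members with the lowest KO differences in EBs, and a link between matches and differences was not tested.

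The 7 YY1 matches all lay after the start site, from base 23 to base 39, in the same orientation. They are shown in the same way, cut where the sequence ends.
Ndufa3, chr7:3617385-3617412, plus strand: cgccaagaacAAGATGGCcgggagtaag
Ndufa9, chr6:126849098-126849125, minus strand: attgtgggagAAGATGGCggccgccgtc
Ndufb8, chr19:44555393-44555414, minus strand: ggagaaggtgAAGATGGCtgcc
Ndufc1, chr3:51408916-51408943, minus strand: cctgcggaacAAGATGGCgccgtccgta
Ndufs4, chr13:114388045-114388069, minus strand: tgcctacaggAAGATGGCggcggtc
Ndufs6, chr13:73328433-73328459, minus strand: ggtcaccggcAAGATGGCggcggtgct
Ndufs7, chr10:80249463-80249490, plus strand: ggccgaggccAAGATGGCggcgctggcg
All 7 belong to complex I, and their KO differences ranged from -0.60 to -0.22 in ESCs and from -0.63 to -0.12 in EBs. The 4 members with GABP letters were Cox8a, Ndufs3, Uqcr11 and Uqcrh, whose KO differences were -0.01, -0.07, -0.58 and -0.44 in ESCs and -0.19, -0.11, -0.70 and -0.72 in EBs. Sdhb, Sdha, Ndufv1, Cox5a and Uqcrfs1 were not among the members with a match, and any of these genes without promoter sequence was not searched. Which of them had promoter sequence is not given here, so this is no result about those genes.

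Other genes of the pathway gave a context for these values. The 17 nuclear subunits of ATP synthase tested had medians of -0.53 in KO ESCs, -0.48 in KO EBs, -0.83 for WT EBs over WT ESCs and -0.93 for KO EBs over KO ESCs. None passed the main test in any of these comparisons, with 3, 3, 3 and 4 at an unadjusted p under 0.05, 0 called by edgeR, and 3, 2, 2 and 2 lower by DESeq2. With the block 13, 11, 15 and 15 were called lower and 0 higher, against 15.3%, 13.4%, 16.7% and 18.4% of all genes lower. For EBs over ESCs, the block counts here and below leave out the spread between letters. The 17 enzymes of the tricarboxylic acid cycle had medians of -0.45, -0.42, -0.62 and -0.64 in the same order, with none called in limma, 5, 2, 5 and 7 at an unadjusted p under 0.05, 10, 9, 13 and 12 lower with the block and 0, 0, 1 and 1 higher, 0 by edgeR, and 1, 2, 4 and 6 by DESeq2. Over all genes the shares by unadjusted p were 17.2%, 13.9%, 14.5% and 13.5%, and by DESeq2 12.4%, 9.83%, 9.66% and 8.99%.

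Glycolysis, the other source of ATP, had medians of -0.58 in KO ESCs, -0.90 in KO EBs, 0.22 for WT EBs over WT ESCs and -0.22 for KO EBs over KO ESCs, over 22 genes. Aldoa, which splits fructose bisphosphate, fell in KO ESCs, with 15672, 13690 and 21335 normalized counts in WT and 8154, 7326 and 8804 in KO (-1.04, SE 0.19, adjusted p = 0.0436 in limma), a call that edgeR did not make (adjusted p = 0.0972). Slc16a1, a lactate transporter, fell in KO EBs, with 3788 and 3712 in WT and 1150 and 1163 in KO (-1.70, SE 0.18, adjusted p = 0.00704), and it rose in WT EBs against WT ESCs (1.08). No other gene of the list passed in limma in these comparisons. At an unadjusted p under 0.05 there were 6, 7, 3 and 1. DESeq2 called 5 and 6 lower in KO ESCs and KO EBs and 2 and 1 higher in the comparisons of EBs with ESCs. With the block 12, 15, 6 and 6 were called lower and 0, 0, 5 and 2 higher, with the same limit for EBs over ESCs.

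In KO ESCs the assembly factors of complexes II to IV had a median above 0 and those of complex I a median below 0. The 26 factors of complexes II to IV had a median of 0.13 in KO against WT ESCs, with 12 of 26 below 0, and -0.27 in EBs. The 14 of complex I had -0.11, with 10 of 14 below 0, and -0.04, with none of the 14 called in limma or edgeR, 3 and 1 at an unadjusted p under 0.05, and 2 and 0 called by DESeq2. Coa7, a factor of complex IV assembly, rose in KO ESCs, with 318, 267 and 458 in WT and 765, 731 and 1108 in KO (1.33, SE 0.24, adjusted p = 0.0424), and it had 259 and 275 in WT EBs and 701 and 664 in KO EBs. Coa3 fell in KO EBs against KO ESCs, from 635, 578 and 636 to 302 and 284 (-1.07, SE 0.15, adjusted p = 0.0328). In WT, Coa3 had 453, 405 and 481 in ESCs and 507 and 473 in EBs, so KO was higher than WT in ESCs and lower in EBs. It lies on chromosome 11, whose 1344 tested genes had a median KO difference of -0.23 in ESCs and -0.44 in EBs. These medians compare KO with WT, whereas the call of Coa3 compares EBs with ESCs. Whether the copy number of that chromosome differed was not tested. Uqcr10 and Uqcrq lie there too, with a median of -0.25 and -0.53. On the other chromosomes the median lay between -0.18 and 0.10. The 15 electron carriers and subunits outside the naming rule had medians of -0.29 and -0.26 in KO ESCs and KO EBs, the 15 genes of mitochondrial DNA copying and transcription -0.29 and 0.04, and the 9 regulators of biogenesis 0.32 and 0.16, with none called in limma in either comparison. At an unadjusted p under 0.05 these 3 lists had 4, 4 and 0 genes in ESCs and 2, 0 and 1 in EBs, edgeR called 0, and DESeq2 called 4, 1 and 0 in ESCs and 1, 0 and 0 in EBs.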

How the data were processed

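Per the submitters' processing notes, the reads were handled with CASAVA 1.8.2, Bowtie, TopHat2 2.0.10, HTSeq 0.6.0 and DESeq on mm10. The annotation release, read length and strand setting are not given in the sources used here. The deposited values are normalized signal: read counts that the authors divided by 1 size factor per library. Whole reads were recovered for 100% of values within a tolerance of 0.01, and 5 summary lines, in which reads in no gene were 34.0% to 38.8% of all records, were left out. Gene names and coordinates come from GENCODE M21 (GRCm38), which named 37607 of 39179 rows.

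Differences are of log2(value + 1), with 1 as the pseudocount. The 15781 genes with a mean of 10 or more were fitted in limma 3.58.1 (R 4.3.3) with 4 group means, trended robust variances, 6 residual degrees of freedom, two-sided tests and Benjamini-Hochberg adjustment over all genes within a contrast, with a threshold of 0.05. The fit was tested on simulated data. Alternatives were edgeR 4.0.16 and DESeq2 1.42.0 on recovered reads, other pseudocounts, filters and scaling, a fit of the compared libraries alone, each library left out, both ESC libraries C left out, copies added, and the replicate letter as a block (3 residual degrees of freedom).

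WT and KO ESC libraries of the same letter deviated together (r = 0.845, 0.828 and 0.858 across 15781 genes), so the letters pair them and blocked values stand beside the main ones. Different letters A and B gave 0.809 and 0.812, so the pairing rests mostly on C. In EBs r was 0.369. The letters pair genotypes within a stage and do not pair EBs with ESCs. Blocked p-values of EBs against ESCs therefore leave out the spread between letters. Otherwise p-values measure the spread between libraries as labelled.

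Members, lists, tests and the naming rule for genes were set with earlier results of these data known. Named were the members called (up to 8 a direction), the 3 highest and 3 lowest per contrast with a mean of 100 or more, the mitochondrial members, the complex II genes, the nuclear complex I core, Uqcrc1, Uqcrc2 and Uqcrfs1, Ndufa4, the complex IV isoforms, the extremes per kilobase, Mettl3, and up to 4 called genes a direction from each pathway list. Others (Ndufb10, Ndufa7, members with promoter matches, and the copies) were chosen after their values were seen. A fibroblast library was not analysed here. The values of 1 member, counted in all totals, are not reported here.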

Additional observations from a re-analysis of the deposited data

Results flagged for a closer look

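For 5 members the KO library was lower than WT at every letter in ESCs and higher at both letters in EBs. Lower at every letter in ESCs were 77.4% of members, and higher at both in EBs were 7 members (11.3%), against 42.6% of all genes. The share of all genes with both directions is not given here, so the count is no result about the members. Ndufb2 was nearly level in ESC libraries A and B, with 68.0 and 64.1 in WT and 66.4 and 63.6 in KO. The difference of the KO effects (EBs less ESCs, log2) was 1.13 for Cox7a1, 0.807 for Ndufa12, 0.724 for Ndufb4, 0.543 for Cox4i1 and 0.318 for Ndufb2. None passed the test of that difference in limma, with adjusted p = 0.778 for Cox7a1, 0.926 for Cox4i1 and 1.00 for the other 3. With the replicate block Cox7a1 had an adjusted p of 0.0460, and without the ESC C libraries Cox7a1 (0.00129), Cox4i1 (0.0184) and Ndufa12 (0.0337) passed. Ndufa12 and Ndufb4 are among the 7 members with much sequence shared with copies, and with copies added the values were 0.26 and 0.65. With copies added Ndufa12 had 461 and 374 in WT EBs and 468 and 367 in KO EBs. Ndufb4 then had 42.1 and 36.2 in WT EBs and 36.7 and 35.7 in KO EBs. Neither was then higher in KO EBs at both letters.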

How the results depend on the processing

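Of 62 nuclear members, those called in KO against WT ESCs (3), KO against WT EBs (0), WT EBs against WT ESCs (1), KO EBs against KO ESCs (0) and the difference of KO effects (0) numbered 33, 26, 49, 48 and 2 with the replicate block, 36, 40, 29, 33 and 6 without both ESC C libraries, and 9, 6, 5, 7 and 0 by DESeq2. The blocked 49 and 48, of EBs against ESCs, leave out the spread between letters. A fit of the compared libraries alone gave 0 in KO against WT ESCs, 36 in EBs and 0 in WT EBs against ESCs. The share of all genes called is not given here for this fit or for those with a library left out. No filter on low values gave 0 in ESCs, and edgeR gave 0 in WT EBs against WT ESCs. Leaving out 1 library gave 0 to 10 in ESCs, 0 to 4 in EBs, 0 to 6 in WT EBs against ESCs, 0 to 2 in KO EBs against ESCs and 0 to 0 for the difference. TMM scaling, pseudocounts of 0.5 and 10 and adding copies changed no call of a named member. No value past the threshold under either setting changed sign. Of 3427 values of named members under an alternative, 125 had the other sign and passed under neither. The C libraries were the shallowest, with 3026837 and 3075007 reads. In WT ESC library C, 3 reads are worth 9.88 normalized counts, and in KO ESC library C 8.33. Levels under these in the same library could not be told from 0. The mitochondrial members could not be fitted at all.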
